A study of Mus musculus with 6 samples.

Results

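The genes described here are 10 markers of stress in the endoplasmic reticulum (ER), measured in brain, liver and intestine of mice 3 h after total-body irradiation and in the same organs of untreated mice. They are the chaperones Hspa5 and Hsp90b1, the folding factors Sdf2l1, Creld2, Manf and Pdia4, the degradation factor Herpud1, and the transcription factors Xbp1, Atf4 and Ddit3. They were taken by name from the gene symbols of the array's probes, with an older symbol accepted, and all 10 were found among 16637 distinct symbols, each read by 1 probe (Manf under its former name Armet). All animals were male FVB mice aged 6 to 8 weeks that carry a luciferase gene driven by a promoter with NF-κB-responsive elements. The untreated groups received no radiation, and the irradiated groups received a single dose of 8.5 Gy of X-rays to the whole body. There are 6 samples, with 1 for each organ and treatment. The methods name replicates from independent mice, and whether each column holds 1 array or averages several mice is not stated.

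The ER folds secreted and membrane proteins. When unfolded proteins accumulate there, the kinases IRE1 and PERK and the membrane-bound factor ATF6 start the unfolded protein response. ATF6 and the spliced form of XBP1 raise the genes of chaperones and of ER-associated degradation, and PERK slows translation and favours ATF4, which in turn can raise Ddit3 (CHOP), a factor linked to cell death. Cells that secrete much protein, such as hepatocytes, Paneth cells, goblet cells and plasma cells, hold a large ER and express many of these genes without any injury. An array probe for Xbp1 reads the amount of its mRNA, and its splicing was not measured.

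ATF6 acts at the ER stress response element (ERSE), spelled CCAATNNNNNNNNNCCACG, in which the factor NF-Y binds the CCAAT part and ATF6 the CCACG part. Promoter windows of RefSeq (build GRCm38.p6, from 250 bases before to 50 bases after the start of transcription) were held for 9 of the 10 genes, all except Manf, and were searched on both strands. A whole ERSE was found in Hspa5, Hsp90b1 and Creld2, which is 3 of 9 genes, against 0.137% of all 27025 genes with a window. Herpud1 held the related ERSE-II, spelled ATTGGNCCACG, which 0.0444% of genes hold. It also held the amino acid response element of ATF4 and CHOP (AARE, spelled TGATGNAA), which 4.51% hold. The members were chosen as markers of the response that acts through these elements. Their share beside that of all genes is thus a description and no test. Both kinds of ERSE contain the CCAAT and CCACG parts. Stretches around these elements are shown because genes that share an element had different changes after irradiation, with the matched letters in capitals and the gene's own strand read from left to right.
Hspa5, chr2:34772005-34772063, plus strand: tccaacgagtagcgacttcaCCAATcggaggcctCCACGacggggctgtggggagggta
Creld2, chr15:88819500-88819558, plus strand: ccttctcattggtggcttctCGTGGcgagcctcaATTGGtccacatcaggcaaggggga
Hsp90b1, chr10:86705513-86705676, minus strand: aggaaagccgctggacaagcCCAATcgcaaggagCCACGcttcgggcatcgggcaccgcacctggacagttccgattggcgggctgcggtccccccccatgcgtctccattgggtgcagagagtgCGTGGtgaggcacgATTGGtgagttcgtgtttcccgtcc
Herpud1, chr8:94386297-94386407, plus strand: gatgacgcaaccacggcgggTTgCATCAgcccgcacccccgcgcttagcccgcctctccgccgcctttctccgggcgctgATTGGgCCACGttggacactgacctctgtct

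The ERSE of Hspa5 lay nearer to the start of transcription than those of Creld2 and Hsp90b1, from -65 to -47 with the first transcribed base as 0. In Creld2 the ERSE was on the other strand, from -126 to -108. Hsp90b1 held 2, at -212 to -194 and, on the other strand, at -107 to -89. The ERSE-II of Herpud1 lay at -52 to -42 and its AARE, on the other strand, at -112 to -105. Sdf2l1, Atf4 and Pdia4 held both parts without the spacing of a whole element, the window of Ddit3 held a CCAAT part alone, and that of Xbp1 held none of the letters searched. These are matches of letters in a window, and binding was not measured.

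**Figure D1:**
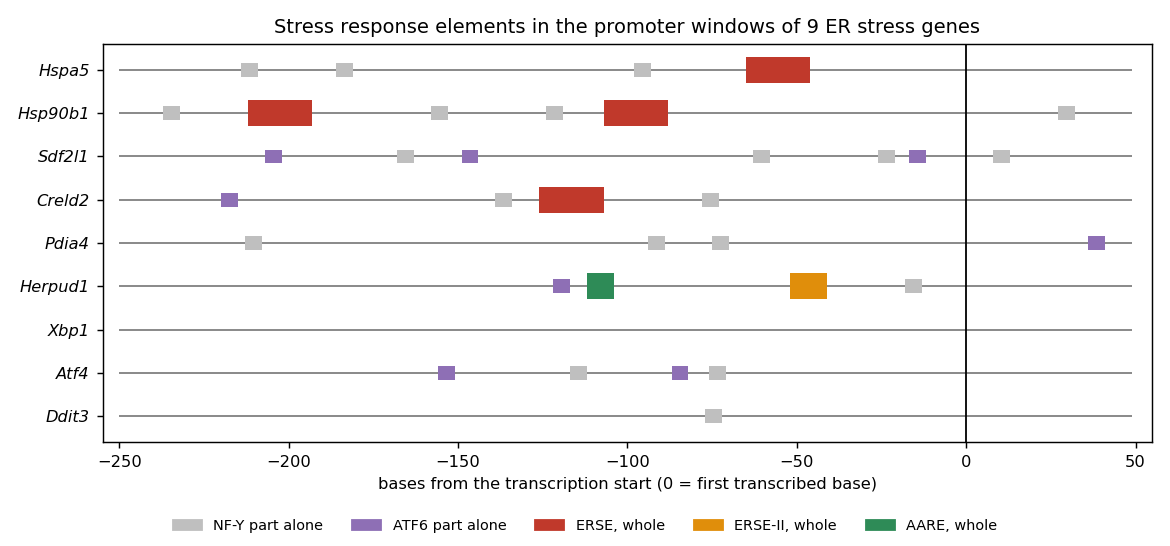
Positions of the elements in the promoter windows of 9 ER stress genes, with bases from the first transcribed base on the horizontal axis and 1 gene per line. Red marks a whole ERSE (Hspa5, Hsp90b1 with 2, Creld2), orange the ERSE-II and green the AARE of Herpud1, grey the NF-Y part (CCAAT) and purple the ATF6 part (CCACG) outside a whole ERSE or ERSE-II.

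Values are spot intensities in arbitrary units after the authors' normalization, and the organs have different medians (103 in both brain samples, 54 in both liver samples, 64.5 and 64 in untreated and irradiated intestine). A gene was called at 1.8-fold, the threshold of the methods. With 1 sample per group there is no replicate error and no test was possible, so each change compares 1 irradiated sample with 1 untreated sample. The disagreement between probes gauges only a part of the error. Probes of a gene read the same samples, so it holds no variation between mice. Where a pair of probes of at least median signal read the same gene, their log2 changes differed by a median of 0.35 for the 1119 such genes of brain, 0.35 for 1053 of liver and 0.36 for 1192 of intestine. The 90th percentile of these differences was 0.83 in brain, against 0.96 for liver and 1.01 for intestine. Each organ had the markers of its tissue: Snap25 of neurons read 9032 and 8931 in untreated and irradiated brain, Alb of hepatocytes 58716 and 53268.5 in liver, and Fabp2 of enterocytes 46247.5 and 42385.5 in intestine.

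Of the 10 genes, 2 fell after irradiation, Creld2 and Manf in the intestine, and none rose in any organ. In intestine 2.79% of all 16595 genes were lower and 1.72% higher by this threshold. In brain no member passed it either way, where 0.919% of 15662 genes were lower and 0.447% higher, and none passed it in liver, where 2.53% of 16118 genes were lower and 1.51% higher. Brain had a median log2 change of -0.04 over the 10 genes, liver 0.05 and intestine -0.29, beside 0.02 over all genes in each organ. In intestine 8 of the 10 were below 0, against 44.2% of all genes. In brain 6 were below 0 and 1 was at 0, and in liver 4 were below 0, against 45.2% and 45.6% of all genes. The mean intensity of the pair was at least the organ's median for all 10 genes in all organs. All genes include dim ones and averages over several probes, and they were not matched to the members in brightness. This limits the shares above and each share of genes with a lower or higher change given below.

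**Figure D2:**
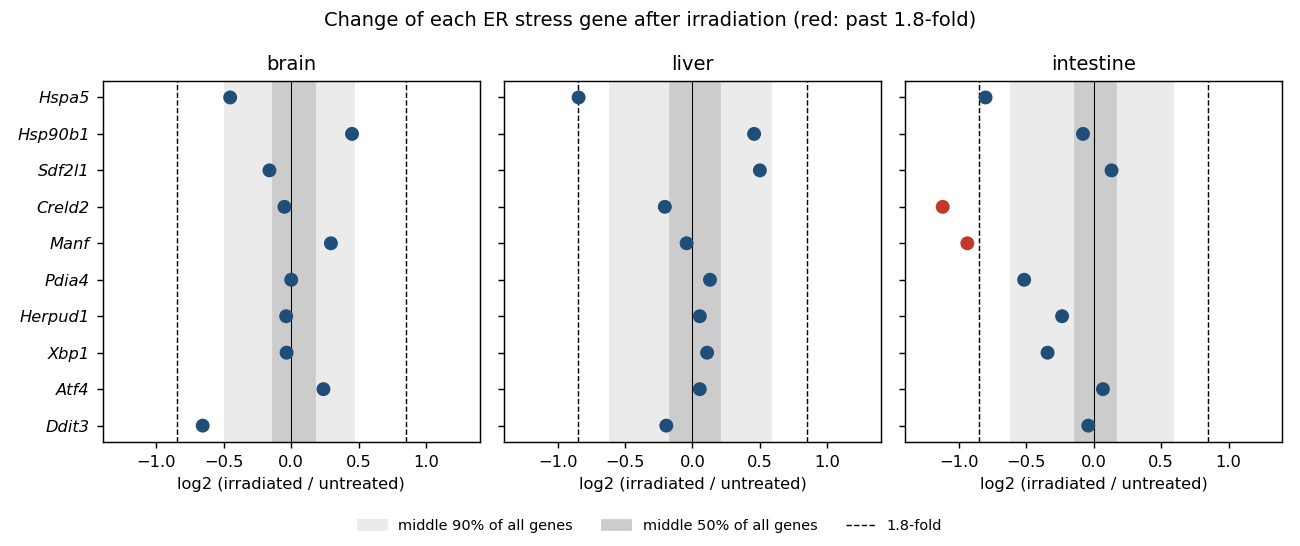
Log2 of irradiated over untreated intensity for each ER stress gene in brain, liver and intestine, with the middle 50% and 90% of all genes in grey and 1.8-fold as dashed lines. Creld2 (-1.12) and Manf (-0.94) in the intestine are past the line, and Hspa5 in liver (-0.84) lies just inside it.

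Hspa5 encodes BiP, the Hsp70 chaperone of the ER lumen that also holds the stress sensors inactive. It read 2028.5 in untreated and 1482 in irradiated brain. In liver the values were 2336.5 and 1301, and in intestine 3573.25 and 2048.5. The irradiated sample was thus the lower in each organ, by 1.37-fold in brain, 1.796-fold in liver and 1.74-fold in intestine, so that no organ reached 1.8-fold and the liver missed it narrowly. A lower change than that of Hspa5 was found for 6.01% of all genes in brain, for 2.55% in liver and for 3.13% in intestine. Removing the trend of the log2 ratio with intensity moved liver and intestine past the threshold, both to -0.91. Hspa5, Creld2 and Ddit3 were below 0 in all 3 organs, which is 3 of 10 genes, against 15.0% of the 15395 genes measured in all organs. Creld2 in brain (-0.05) and Ddit3 in intestine (-0.04) lay near 0, well inside the median disagreement between probes. In liver Creld2 (-0.21) and Ddit3 (-0.19) were inside it as well. Only Hspa5 exceeded it in every organ.

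Hsp90b1 encodes GRP94, the Hsp90 of the ER lumen, and is commonly induced along with Hspa5. Its intensity was 1186.5 in untreated and 1622 in irradiated brain. Liver read 2308 and 3169, and intestine 4226.5 and 3999. It was higher after irradiation in brain and liver by 1.37-fold in each, where Hspa5 was lower, and nearly equal in intestine. The log2 changes of 0.45 in brain and 0.46 in liver lay above those of 94.4% and 91.7% of all genes. Both are a little above the median disagreement between probes of the same gene.

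Creld2, a disulfide isomerase-like protein of the ER lumen, had the largest change among the 10 genes. It fell from 299 to 137.5 in intestine, by 2.17-fold, and 1.39% of all genes had a lower change. In brain it read 145.5 and 140.5, and in liver 271.5 and 235.5, so the other organs differed little (log2 changes of -0.05 and -0.21). Manf, a small protein of the ER that is also secreted and protects cells under stress, fell from 864 to 451 in intestine, by 1.92-fold, with 2.26% of genes lower. The log2 change of Creld2 (-1.12) exceeded the 90th percentile of disagreement between probes in intestine, and that of Manf (-0.94) did not. It was 417 and 511.5 in brain, 1.23-fold higher after irradiation, and 504.5 and 489.5 in liver. Sdf2l1, which works with BiP and its co-chaperone ERdj3, did not share this pattern. Its probe read 99 and 108.5 in untreated and irradiated intestine, 127.5 and 114 in brain, and 70 and 99 in liver, where it was 1.41-fold higher. The Sdf2l1 probe was dimmer, at percentile 69.5 of all probes in untreated intestine, against 89.1 for Creld2 and 96.0 for Manf.

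Pdia4 encodes the disulfide isomerase ERp72. It read 118 in untreated and 82.5 in irradiated intestine, 1.43-fold lower, with 6.59% of genes lower. Both brain samples read 144.5, and liver read 95.5 and 104.5. Herpud1, a membrane protein of the complex that sends misfolded proteins to the proteasome, differed by at most 1.18-fold in the 3 organs. Brain read 176 and 171.5, liver 143 and 148.5, and intestine 136.5 and 116.

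Xbp1, the target of IRE1, read 854.5 and 834.5 in untreated and irradiated brain. Liver read 1532.25 and 1652, and intestine 1993.5 and 1572, a 1.27-fold lower value after irradiation. Atf4, which acts downstream of PERK and is controlled largely at translation, was the only member above 0 in all organs, with small differences. Brain read 812.5 untreated and 959 irradiated, liver 705 and 732, and intestine 1680 and 1761.5. Ddit3 was lower in irradiated than in untreated brain, at 199.5 and 314.5, a 1.58-fold difference, with 2.43% of genes lower. In liver it read 71.5 and 62.5 and in intestine 90.5 and 88, so that the other organs differed less. Mbp of oligodendrocytes was also lower in irradiated brain (6676 and 3143.5), and 2 of 12 measured neuron and glia markers passed 1.8-fold downward there, the other being Tubb3. Of all genes in brain, 0.919% passed it downward. The summed level of the 12 was 22960 in untreated and 18586 in irradiated brain, and 16284 and 15442 without Mbp. Their median log2 change was -0.04, and the myelin gene Mobp read 340 and 334. Olig2 of oligodendrocytes (260 and 184) and Syt1 of neurons (1942 and 1673) were lower within the threshold. Slc17a7 of neurons (1005.5 and 1212.75) and Gfap of astrocytes (162 and 185) were higher within it. The part of these cells in the difference of Ddit3 was not tested.

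**Figure D3:**
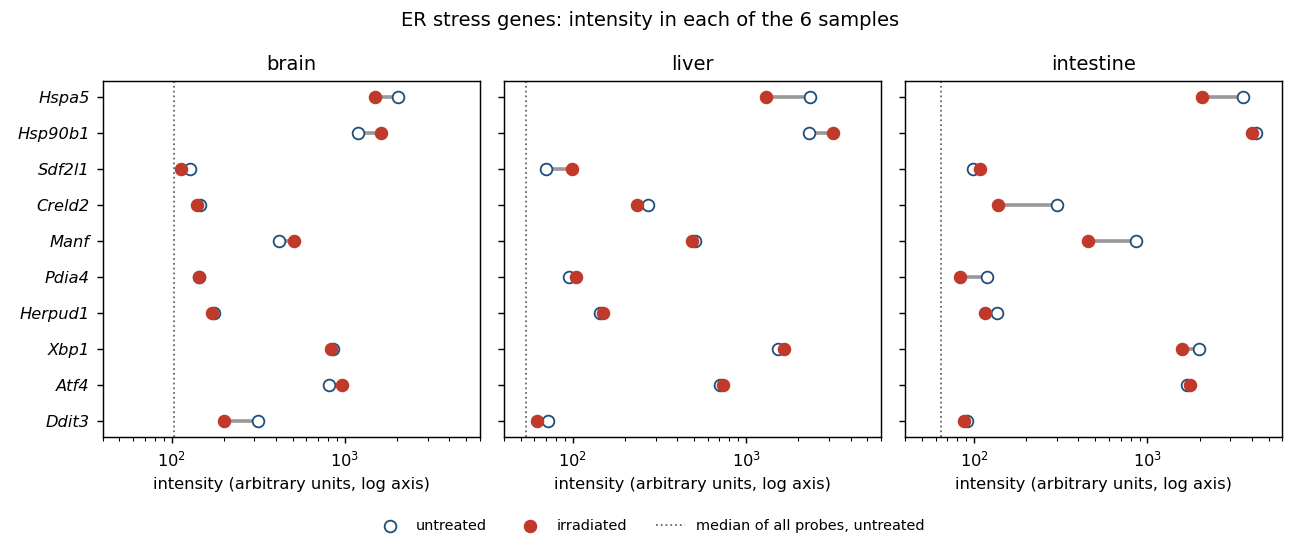
Intensity of each ER stress gene in the untreated (open) and irradiated (filled) sample of each organ, on a log axis, with the median of all probes of the untreated sample dotted. The widest gaps are those of Creld2 (299 and 137.5) and Manf (864 and 451) in intestine and of Hspa5 in liver (2336.5 and 1301), and the 10 genes span levels from 62.5 to 4226.5.

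The samples of an organ share nearly the same median and the organs do not, and how the organs were scaled to each other is not stated, so the place of a probe among all probes of its sample is given in place of intensities. The probe of Hspa5 lay between percentiles 97.5 and 98.9 in all 6 samples, and that of Hsp90b1 between 96.8 and 99.1. The Creld2 probe stood at percentile 66.2 in untreated brain, 90.1 in untreated liver and 89.1 in untreated intestine, and at 77.9 in irradiated intestine. For Manf the untreated samples were at 89.3, 94.4 and 96.0 in the same order. The Ddit3 probe stood at percentile 85.3 in untreated brain, 64.2 in liver and 66.7 in intestine. Since each organ has 1 untreated sample, the spread of these places between mice is unknown.

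The change in intestine was below that in brain for 8 of the 10 genes, against 47.8% of 15639 genes, and below that in liver for 7, against 47.1% of 16084 genes. The gap between intestine and brain was largest for Manf, with log2 changes of -0.94 and 0.29, and for Creld2, with -1.12 and -0.05. Ddit3 and Sdf2l1 were the genes whose change was higher in intestine than in brain. Among the genes with an ERSE, the log2 changes in intestine were -1.12 for Creld2, -0.80 for Hspa5 and -0.08 for Hsp90b1. The 6 genes with a window and no ERSE lay between -0.52 and 0.13 there. With so few genes and 1 sample per group, the element and the change were not tested against each other.

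Other cell types were followed through their markers, because in whole organs fewer cells of a type and less RNA per cell cannot be told apart. Beside the marker counts in intestine, 2.79% of all genes were lower and 1.72% higher by the threshold. Of 8 measured plasma and B cell markers in intestine, 3 fell and none rose: Jchain, the joining chain of secreted antibodies (11314 and 4799), Mzb1, an ER cofactor of antibody folding (400 and 108.5), and the B cell antigen Cd79b (471.5 and 71). The summed level of the 8 was 12582 in untreated and 5403 in irradiated intestine, most of it from Jchain, and 1268 and 604 without Jchain. The median log2 change of the list was -0.20. Prdm1 (73 and 99) and Sdc1 (117 and 141), of the same list, were the higher after irradiation, within the threshold. Irf4 (63 and 51.5), Derl3 (52.5 and 49) and Tnfrsf17 (90.5 and 84.5) were the lower, also within the threshold. Of 4 measured Paneth cell markers 2 fell, Lyz1 (3446 and 826) and Itln1 (27545.5 and 9925), with sums of 47252.5 and 23958.5. Mmp7 of Paneth cells read 6971 and 6087. None of 8 goblet cell markers passed the threshold, and their sums were 55217 and 70027.

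Markers of neighbouring organs moved as well. Of 11 hepatocyte markers 5 fell in intestine and none rose, among them Alb (2175 and 268) and Fgb (622 and 159), while the sums of 39294.5 and 37172.5 were set largely by Apoa1, which enterocytes also express, and were 5702.5 and 2378 without it. Of 15 pancreatic acinar markers 1 fell, Ctrb1 (1193.5 and 315.5), with sums of 12728 and 14943. Zg16, which goblet cells also express, supplied most of this level, and without it the sums were 3896 and 3327. The acinar markers Pnlip (45.5 in both samples) and Cpa1 (42.5 and 49) were near the lowest intensities, while Clps was bright (1710.5 and 2036.75). Cela1 (142.5 and 207.5) was higher, and Pnliprp2 (175 and 111.5) and Pnliprp1 (95 and 58) were lower, all within the threshold. Enterocyte markers had sums of 67597 and 69065, with 1 of 10 higher. The 6 smooth muscle markers were within the threshold. The part of these cell types in the lower Creld2, Manf and Hspa5 of the intestine was not tested. In liver 2 of 11 hepatocyte markers rose (Hpx and Trf) and none fell, with sums of 246630 and 254036, beside the lower Hspa5 there. Of all genes in liver, 1.51% were higher and 2.53% lower.

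**Figure D4:**
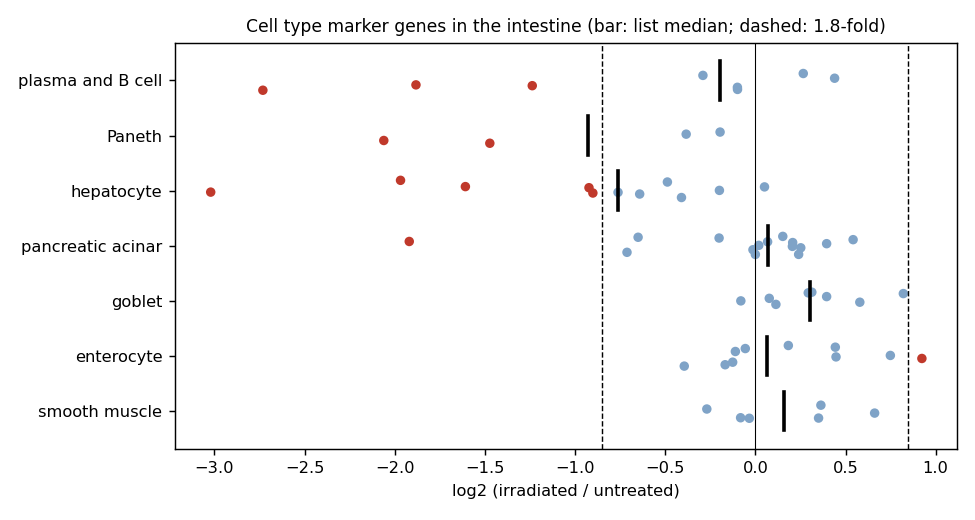
Log2 of irradiated over untreated intensity in intestine for each measured marker gene of 7 cell types, with the list median as a bar and 1.8-fold as dashed lines. Genes past the line, in red, are 3 of plasma and B cells, 2 of Paneth cells, 5 of hepatocytes and 1 of acinar cells on the lower side, and 1 of enterocytes on the higher side.

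Further lists of genes of the pathway, 144 genes in all, were read beside the members. In brain 3 of 135 measured genes fell and none rose (2.22% and 0%). In liver 5 of 137 rose and 5 fell (3.65% each), and in intestine 3 of 138 rose and 7 fell (2.17% and 5.07%). For comparison, the share of all genes called lower was 0.919% (brain), 2.53% (liver) and 2.79% (intestine). Upward calls made up 0.447%, 1.51% and 1.72% of them, with the organs listed as before. The pathway genes had median log2 changes of 0.07, 0.09 and -0.04, while the median of all genes was 0.02 in every organ. All genes were not matched to the lists in brightness.

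The stress sensors, the eIF2 kinases and related membrane-bound factors mostly stayed within the threshold. None of 15 genes passed it in brain. Creb3l3, an ER-anchored factor of liver and gut that is cleaved as ATF6 is, fell from 1503.5 to 380.5 in liver (3.95-fold) and from 1613.75 to 558 in intestine (2.89-fold). Its relative Creb3l1 fell from 138 to 69 in liver, a call that was lost with a pseudocount of 50. No other of the 16 genes measured in liver and intestine was called.

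Of 33 other folding factors 2 fell in intestine and none rose, with a median log2 change of -0.17. Those that fell were Dnajb11, which encodes the BiP co-chaperone ERdj3 (594 and 225.5, 2.63-fold lower), and Fkbp2, a prolyl isomerase of the ER (431 and 163, 2.64-fold lower). In that organ 72.7% of the list were below 0, while P4hb, the classical disulfide isomerase (4094.5 and 7133.5), and Ppib, a prolyl isomerase of the ER (1025.5 and 1676), were higher within the threshold. In liver Erp29, a chaperone of the secretory pathway, fell from 621 to 253.75 (2.45-fold) and the disulfide isomerase Txndc5 from 472 to 216 (2.19-fold), while the isomerase Pdia6 rose from 148.5 to 271 (1.82-fold). Erp29 (910 and 499.5) and Txndc5 (301.5 and 167) were also lower in brain, both just past the threshold and lost with a pseudocount. The list's median was 0.05 in brain and 0.02 in liver.

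Of 23 degradation factors 1 was called in any organ. Syvn1, the ubiquitin ligase HRD1 to which Herpud1 binds, rose from 312.5 to 580 in intestine, by 1.86-fold, and Pdia6 and Syvn1 were not called with a pseudocount, after quantile normalization or with the trend removed. The list's medians were 0.07 in brain, 0.20 in liver and 0.07 in intestine.

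Among 31 measured targets of ATF4 and CHOP none was called in brain. In liver 2 rose, Atf5, a factor translated under stress (296.5 and 643.75, 2.17-fold), and the hormone Fgf21 (52.5 and 99), whose untreated value was below the median of its sample. In intestine 2 rose and 2 fell. Gdf15, a stress cytokine that p53 also induces, read 54 (below the sample's median) and 130, and Slc3a2, the heavy chain of amino acid transporters, 3439.5 and 6427. The inhibitor of growth signalling Ddit4 fell from 283.5 to 134.5 (2.11-fold), and the pseudokinase Trib3, a direct target of CHOP, from 193.5 to 101 (1.92-fold). Trib3, Gdf15 and Fgf21 were not called with a pseudocount, and Slc3a2 not after quantile normalization or with the trend removed.

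Genes of translocation into the ER and of export from it were called in each organ. Sec62, of the translocation channel, fell in brain (1388.5 and 704, 1.97-fold) and liver (813.5 and 402.5, 2.02-fold). Ssr3, of the complex that assists the channel, rose from 501 to 1277 in liver (2.55-fold), as did the coat protein Sec13 (782 and 1487.5), though not after quantile normalization. In intestine Srp19, of the signal recognition particle, fell from 809.25 to 340.5 (2.38-fold) and the coat protein Sec24d from 587 to 238.5 (2.46-fold). Medians of this list were 0.15, 0.18 and -0.08 in brain, liver and intestine.

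Heat shock proteins outside the ER were read as a neighbouring family, with 18 of 22 measured. None rose in any organ, and 2, 2 and 1 fell in brain, liver and intestine, with medians of 0.03, -0.13 and -0.12. In the same order, 0.447%, 1.51% and 1.72% of all genes were higher, and 0.919%, 2.53% and 2.79% were lower. Hspa8, the constitutive cytosolic Hsp70, read 15141.5 and 7576.5 in brain and 8844 and 2064.25 in liver, where it fell by 4.28-fold. The paper lists this gene as heat shock protein 8, with a mean fold change over replicates. That mean lay within the threshold in brain, so the brain call rests on the pair of columns used here. For liver the paper's mean was a fall past the threshold, smaller than 4.28-fold. The paper also lists heat shock protein 1 (chaperonin), which fell past the threshold in intestine and is not among the 18 genes read here. Hspa1b, the inducible form, was 706.5 and 340 in liver, and Hspa4 was 334 and 177 in brain and 426.5 and 214 in intestine. The call of Hspa4 in brain was lost with a pseudocount.

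**Figure D5:**
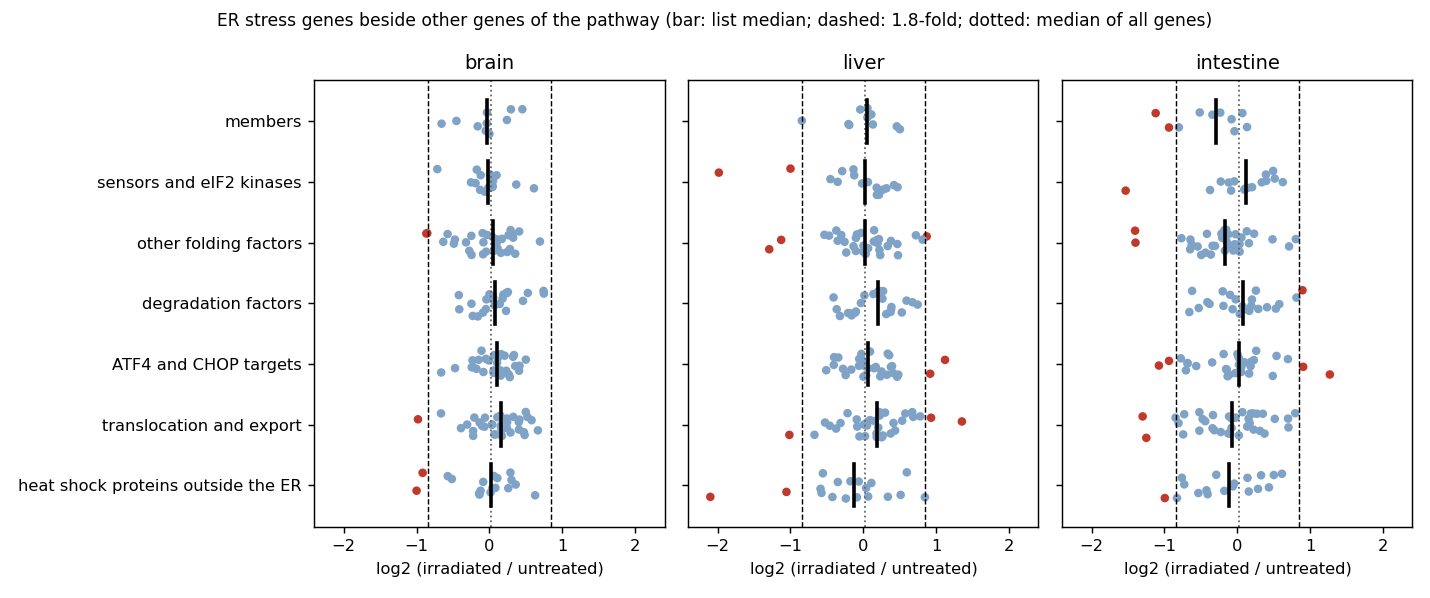
Log2 of irradiated over untreated intensity for the 10 ER stress genes (members), 5 other lists of the pathway and heat shock proteins outside the ER, by organ, 1 point per gene, with the list median as a bar, 1.8-fold dashed and the median of all genes dotted. In intestine the medians of the 10 genes (-0.29) and of the other folding factors (-0.17) lie below that of all genes (0.02).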

How the data were processed

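The authors deposited linear intensity values, with 1 column per organ and treatment. Per the labels and the methods, Cy5-labelled RNA was put on a mouse whole-genome OneArray, read in 1 colour. The authors subtracted local background, left out control spots and spots of low signal-to-noise ratio, and normalized in R. The submitters' processing notes name limma with no version. The genome build and the place of each probe in its transcript are not given in the sources used here.

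Symbols of 21020 probes were updated through RefSeq names, of which 3410 changed, and 8902 others named no gene. Log2 of irradiated over untreated intensity, with nothing added, was averaged over the probes of each gene. The members and lists were chosen with earlier results of these data known. Named are all members and, in each list and organ, up to 4 genes with the largest change past 1.8-fold. A list is described by counts and its median beside all genes. The number of samples limits the precision, and no p-value was computed.

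Alternatives were centring on medians, quantile normalization, removal of the intensity trend by loess (span 0.3), leaving out probes below the 25th percentile, a pseudocount of 50, the brightest probe, thresholds of 2-fold and 1.5-fold, and each member left out in turn. The script that makes the 1.8-fold calls was checked on simulated intensities with planted changes, which is no test of the irradiation effect. Python 3.11.15, pandas 2.3.3, numpy 2.4.6, R 4.3.3 and limma 3.58.1 were used.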

Additional observations from a re-analysis of the deposited data

Results flagged for a closer look

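Manf had a higher intensity after irradiation in brain and a lower one in intestine. Its log2 change in intestine minus that in brain was -1.23, the only opposite pair of changes among the 10 genes whose gap reached 1.8-fold. With 1 untreated and 1 irradiated sample per organ, this difference was not tested.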

How the results depend on the processing

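No member rose under any of the 8 alternatives run over all samples. Removal of the intensity trend took the members that fell in liver from 0 to 1 (Hspa5) and those in intestine from 2 to 3. With a threshold of 1.5-fold, 1 member was lower in brain (Ddit3), 1 in liver and 3 in intestine, and with 2-fold 1 was lower in intestine (Creld2). Under the other alternatives the counts were as reported. Without each member in turn, the median log2 change ranged from -0.04 to -0.03 in brain, stayed at 0.05 in liver, and ranged from -0.34 to -0.23 in intestine. Of 30 changes, 3 turned sign under any alternative, Herpud1 in liver and Atf4 in liver and intestine, all near 0 and with the trend removed. Of 224 values for the 28 other named changes, 28 no longer passed the threshold and none reversed, 12 of them under the stricter 2-fold threshold. No scaling moved the median of all genes by over 0.1. No paired analysis was possible because each group has 1 sample. Dim probes, such as that of Calr in intestine (48 and 49), limit what can be said of their genes.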

Other observations

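A whole ERSE stood in the promoter window of 17 other genes with a probe, of which 7 belong to the lists of the pathway. Dnajc3, an inhibitor of PERK that also assists BiP, read 159.5 and 195 in untreated and irradiated brain, with log2 changes of 0.29 in brain, 0.47 in liver and 0.23 in intestine. Canx, the membrane-bound lectin chaperone calnexin, had 0.41, 0.38 and 0.03 in the same order. Pdia6 had 0.17, 0.87 and -0.06, and Syvn1 had -0.16, -0.37 and 0.89. Ero1b, an oxidase that recharges disulfide isomerases, had -0.25, 0.14 and -0.22. The median log2 change of the other genes with an ERSE was -0.05 in brain (16 genes), 0.05 in liver (16 genes) and 0.00 in intestine (17 genes), with 1 higher in liver, 1 higher in intestine and none lower. This comparison was chosen after the values were seen and was not tested.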
